A study of Homo sapiens with 3 samples.

Results

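The genes described here are 34 members of the machinery that copies DNA in S phase: the MCM2-7 helicase, the factors that load and activate it, the sliding clamp and its loader, the replicative polymerases, the enzymes that finish lagging strands and the enzymes that supply deoxynucleotides. They were listed by symbol. A gene counted as measured where the array annotation gave a probe set its symbol and no other. Of several such probe sets, the one brightest on average over the 3 arrays, in log2, stands for the gene. All 34 were found, among 19775 genes in all, and together they had 65 probe sets. The cells were KYSE140, an established human oesophageal squamous carcinoma line. The 2 arrays B1 and B2 held RNA after 12 h of cisplatin, which forms platinum crosslinks in DNA, and 1 array held RNA of untreated cells. The dose is given in the labels as 10 mM, a unit that could not be checked here. Separate cultures for B1 and B2 are not stated, so the p-values measure only the spread between these arrays, which may be technical. The untreated group is a single array with no spread of its own.

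Replication is prepared in G1, when the origin recognition complex with CDC6 and CDT1 loads the inactive MCM2-7 helicase onto origins, a step called licensing that geminin (GMNN) restrains. At the start of S phase, CDC45 and the GINS complex join MCM2-7 to form the active helicase, polymerase alpha with primase lays down primers, the replication factor C complex loads the PCNA clamp, and polymerases delta and epsilon extend the strands. Many of these genes are known targets of E2F transcription factors, which act at the passage from G1 to S phase. In a dividing carcinoma line all of them are in use. Squamous markers were bright: 7 of 10 were measured, with intensities from 276 to 5656, whereas fibroblast, leukocyte and endothelial markers lay between 5.24 and 159.

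Promoter stretches of 8 members are shown to set side by side members that stood higher in both cisplatin arrays (CDC6, CDT1, ORC6 and GINS2), lower in both (POLA1, RFC3 and PRIM1) and, with MCM6, of opposite signs. Some hold both kinds of element and others only 1 kind. Each runs 5′ to 3′ on the gene's own strand, from 160 bases before the annotated start to 20 bases after it (180 bases, RefSeq, GRCh38.p14). Capitals mark E2F-type octamers (TTTCCCGC, TTTGGCGC, TTTCGCGC or TTTGCCGC) and the CCAAT element, on either strand, so that ATTGG is a CCAAT on the opposite strand. An octamer on one strand and another on the opposite strand overlap where 12 capitals run together.
CDC6, chr17:40287719-40287898, plus strand: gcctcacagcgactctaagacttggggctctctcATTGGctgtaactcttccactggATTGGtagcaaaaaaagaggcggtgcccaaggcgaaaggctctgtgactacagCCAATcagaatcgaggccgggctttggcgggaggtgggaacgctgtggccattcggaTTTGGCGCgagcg
CDT1, chr16:88803629-88803808, plus strand: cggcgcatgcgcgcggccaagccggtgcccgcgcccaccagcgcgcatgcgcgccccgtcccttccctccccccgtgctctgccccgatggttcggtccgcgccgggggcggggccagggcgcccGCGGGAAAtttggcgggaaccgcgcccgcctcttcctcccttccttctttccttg
ORC6, chr16:46689499-46689678, plus strand: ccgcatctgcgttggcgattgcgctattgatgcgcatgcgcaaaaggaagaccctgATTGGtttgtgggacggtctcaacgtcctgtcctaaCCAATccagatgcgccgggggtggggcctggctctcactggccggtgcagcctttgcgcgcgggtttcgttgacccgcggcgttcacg
GINS2, chr16:85688935-85689114, minus strand: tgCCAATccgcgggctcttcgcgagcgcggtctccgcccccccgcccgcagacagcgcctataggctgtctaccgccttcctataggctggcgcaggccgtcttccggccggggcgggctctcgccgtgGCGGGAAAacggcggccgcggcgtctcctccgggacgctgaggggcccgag
MCM6, chr2:135876424-135876603, minus strand: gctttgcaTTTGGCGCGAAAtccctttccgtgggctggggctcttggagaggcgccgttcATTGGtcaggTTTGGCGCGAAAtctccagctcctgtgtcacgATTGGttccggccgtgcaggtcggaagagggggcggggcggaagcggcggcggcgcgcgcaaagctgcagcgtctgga
POLA1, chrX:24693758-24693937, plus strand: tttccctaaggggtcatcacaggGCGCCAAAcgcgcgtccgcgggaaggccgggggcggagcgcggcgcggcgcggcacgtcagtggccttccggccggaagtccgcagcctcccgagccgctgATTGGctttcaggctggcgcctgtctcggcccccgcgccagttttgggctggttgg
RFC3, chr13:33817989-33818168, plus strand: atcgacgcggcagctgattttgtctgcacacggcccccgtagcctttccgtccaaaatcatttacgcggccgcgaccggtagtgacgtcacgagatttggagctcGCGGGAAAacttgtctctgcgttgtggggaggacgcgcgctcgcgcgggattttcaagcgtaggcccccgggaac
PRIM1, chr12:56752304-56752483, minus strand: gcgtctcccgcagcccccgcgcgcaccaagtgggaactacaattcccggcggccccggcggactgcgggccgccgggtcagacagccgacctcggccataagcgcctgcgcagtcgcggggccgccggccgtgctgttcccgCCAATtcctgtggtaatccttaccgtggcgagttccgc

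Promoter windows of 300 bases, from 250 before to 50 after the start, were at hand for 31 members. Of these, 18 (58.1%) had an E2F-type octamer in at least 1 of their windows, against 1090 (3.99%) of all 27305 genes with a window. By single octamer, TTTCCCGC was found in 9 of the 31 member genes (1.98% of all genes), TTTGGCGC in 7 (0.795%), TTTCGCGC in 5 (0.630%) and TTTGCCGC in 0 (0.725%). CCAAT was found in 19 of the 31 (61.3%), against 39.7% of all genes, and both elements in 10 (32.3%), against 1.84%. MCM6 had 4 octamers, as 2 overlapping pairs, and 2 CCAAT elements. The octamer of CDC6 began at position 8, counting the first transcribed base as 1, and that of CDT1 began 35 bases before the start. These matches are letters in a window and do not show that a factor was bound.

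Under cisplatin 4 of the 5 licensing members (ORC1, ORC6, CDC6 and CDT1) stood higher in both arrays, and GMNN had opposite signs. Of the 6 polymerase and primase members 4 stood lower in both, as did 3 of the 6 clamp and clamp loader members. These lower counts rest on the brightest probe sets. With all probe sets averaged, RFC1 and RFC3 had opposite signs in the arrays, and POLA2 was higher in both. Of 12 further licensing and firing genes, 3 were higher and 6 lower in both, ORC2, ORC3, ORC4 and ORC5 among the lower. For scale, 39.2% of all genes were higher in both arrays and 27.4% lower. CDC6 was 1.65-fold the untreated level on average, GINS4 1.46-fold and CDT1 1.45-fold. At the other end, the untreated level was 1.62-fold that of cisplatin cells for POLA1, 1.35-fold for RFC3 and 1.32-fold for PRIM1. The RFC3 value rests on its brightest probe set: with all its probe sets averaged, the log2 difference (cisplatin minus untreated) was 0.04. No member passed the test: in limma, fitted over all genes with Benjamini-Hochberg adjustment, 0 of 34 had an adjusted p under 0.05 (lowest adjusted p = 0.969), as did 0% of all genes. That fit had 1 residual degree of freedom, and 0 calls from it do not show that genes did not differ. At an unadjusted p under 0.05 only CDC6 remained among the members (1 of 34), against 2.86% of all genes.

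Log2 differences are given as cisplatin minus untreated, B1 and then B2. Of the 34 members, 13 were higher in both cisplatin arrays, 11 lower in both, and 10 had opposite signs. Among all genes 39.2% were higher in both and 27.4% lower in both, so that these counts lay near the background. Over the 10209 genes whose log2 values averaged 6 or more, a level all 34 members reached, 29.8% were higher in both and 34.2% lower in both. The median member differed by 0.06 in B1 and -0.09 in B2, and the median of all genes by 0.03 and 0.05. By a size rule of at least 1.5-fold in both arrays, 1 member (CDC6) was higher, against 0.956% of all genes, and 0 were lower, against 2.65%.

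B1 and B2 gave different counts. In B1, 22 members were above untreated (55.0% of all genes were), and in B2, 14 were (56.6% of all genes). Among genes averaging 6 or more in log2, 46.4% were above untreated in B1 and 49.1% in B2. Of the 10 with opposite signs, 9 were higher in B1 and lower in B2, and 1 (POLE) was the reverse. The former pattern was that of 15.7% of all genes and 16.7% of those averaging 6 or more in log2. The 9 members were MCM4, MCM6, GMNN, MCM10, CDC45, PCNA, RFC2, FEN1 and LIG1. The SD of the members' differences was 0.21 in B1 and 0.42 in B2, and that of B2 minus B1 was 0.31. Over all genes the SD of B2 minus B1 was 0.56, and over those averaging 6 or more in log2 it was 0.67, so the arrays differed less over the members by this measure. The median size of B2 minus B1 ordered them otherwise. It was 0.28 over the members, 0.21 over all genes and 0.29 over those averaging 6 or more in log2. B2 also differed from B1 in squamous markers, whose summed intensity was 10216 in B1 and 19530 in B2, against 13425 in untreated cells. The 7 measured did not move together: 2 were higher in both arrays, 2 lower and 3 of opposite signs. Their median difference was -0.01 in B1 and 1.07 in B2. SOX2 had 2416 in B1 and 5308 in B2, against 5656 in untreated cells, and KRT5 had 1345 and 4251, against 1217. KRT14 lay farthest apart between the cisplatin arrays, with 276 in B1 and 2372 in B2, against 278 in untreated cells. Only EPCAM was lower in B2 than in B1, with 4503 in B1 and 4190 in B2, against 4545. Whether the squamous marker values bear on the replication genes was not tested. In RNA from whole cultures, fewer cells in S phase and less RNA per cell cannot be told apart.

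**Figure D1:**
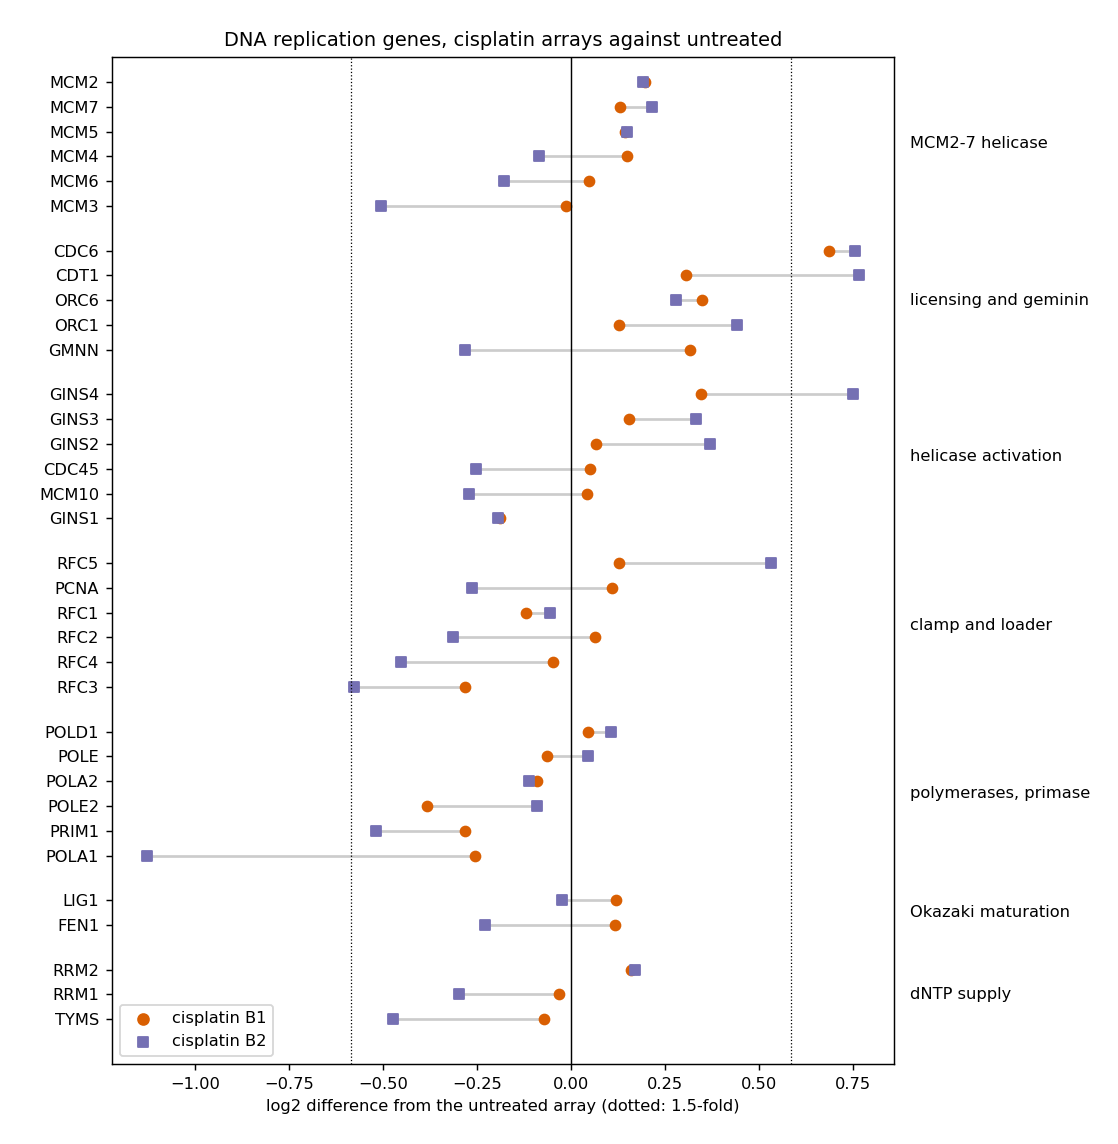
Log2 difference from the untreated array (x axis) of each of the 34 genes (rows, grouped by role) in cisplatin arrays B1 (circles) and B2 (squares), joined by a line. CDC6 lies right of the 1.5-fold line in both arrays, POLA1 lies farthest left in B2 at -1.13, and 9 genes lie right of 0 in B1 and left of it in B2.

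Licensing factors were the role with the highest median, 0.32 in B1 and 0.44 in B2, with 4 of 5 genes higher in both arrays. CDC6, the ATPase that recruits the helicase to origins, had an intensity of 564 in B1 and 592 in B2, against 351 in untreated cells. Both cisplatin arrays lay well above the untreated one and close to each other, with an SD of 0.05 between them (log2 difference 0.72, SE 0.19; adjusted p = 0.969 in limma). CDT1, its partner in loading, had 325 in B1 and 448 in B2, against 263 in untreated cells. Its distance from untreated was larger in B2 (0.76) than in B1 (0.30), so the pair spread more than for CDC6 (mean 0.53, SE 0.29). ORC6, the smallest subunit of the origin recognition complex, had 1108 and 1056 in cisplatin cells, against 870 in untreated cells. Its 2 differences were alike, at 0.35 and 0.28. ORC1, the large ATPase subunit whose level varies through the cell cycle, had 121 and 150 in cisplatin cells, against 110.5 in untreated cells (0.13 and 0.44). Geminin, the inhibitor of CDT1, went its own way: GMNN had 2625 in B1 and 1734 in B2, against 2109 in untreated cells, so that the cisplatin arrays lay on either side of it (0.32 and -0.28).

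The ORC6 reading and the brightest CDT1 reading came from probe sets whose names end in _x_at, a suffix for probes that can bind other transcripts. The other CDT1 probe set, with 108 and 143 in cisplatin cells against 90.9 in untreated cells, also lay higher in both arrays (0.25 and 0.66). The second CDC6 probe set differed by 0.55 and 0.33, less than the brightest. Over both CDC6 probe sets the mean difference was 0.58, just under the 1.5-fold line.

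**Figure D2:**
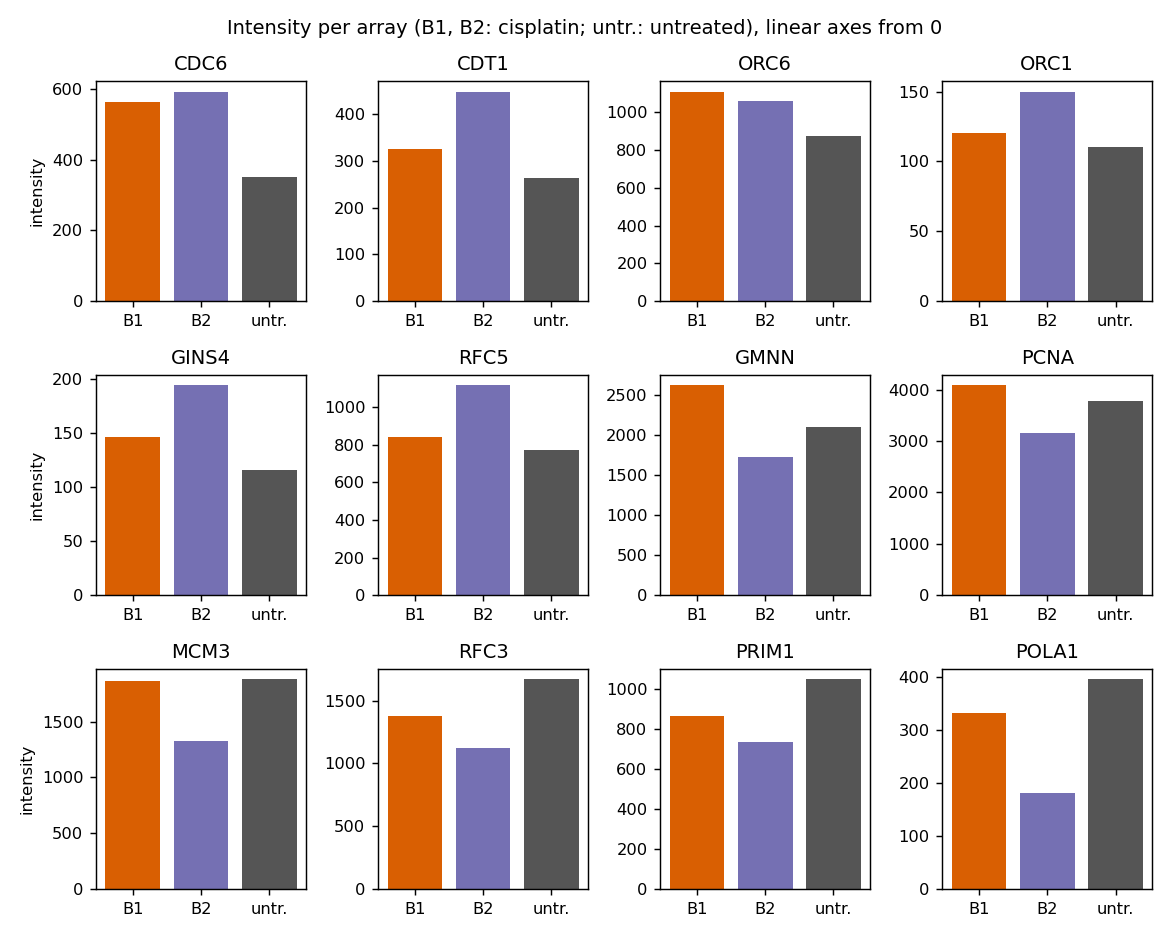
Intensity (y axis, linear from 0) in cisplatin arrays B1 and B2 and in the untreated array (bars, left to right) for 12 of the genes; each bar is 1 array, so there are no error bars. CDC6, CDT1, ORC6, ORC1, GINS4 and RFC5 are taller in both cisplatin arrays, GMNN and PCNA lie on either side of untreated, and MCM3, RFC3, PRIM1 and POLA1 are shorter in both.

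The helicase subunits themselves differed little. MCM2 had 1150 in B1 and 1146 in B2, against 1005 in untreated cells. MCM7 had 1014 and 1076 in cisplatin cells, against 927 in untreated cells, and MCM5 had 384 and 385, against 348. These 3 were higher in both arrays by small and similar amounts (0.13 to 0.21 on the log2 scale), each within about its SE of 0 (SE 0.18 to 0.19; adjusted p = 0.969 in limma). MCM3 was the exception in the other direction, with 1864 and 1325 in cisplatin cells, against 1883 in untreated cells, so that its difference lay in B2 (-0.51) and hardly in B1 (-0.01). MCM4 (0.15 and -0.08) and MCM6 (0.05 and -0.18) had opposite signs in the arrays. The 6 proteins form a ring in equal parts, yet in B2 their differences ran from -0.51 to 0.21.

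Among the genes that turn the loaded ring into an active helicase, GINS subunits did not share a direction. GINS4 had 147 in B1 and 194 in B2, against 116 in untreated cells, and lay higher in both (0.34 and 0.75; mean 0.55, SE 0.27, adjusted p = 0.969 in limma). For GINS4, 3 of 4 probe sets lay above untreated in B1 and B2, and the fourth was dim, at 15.1 and 12.5 in cisplatin cells against 14.8 in untreated cells. GINS3 had 401 and 454 in cisplatin cells, against 360 in untreated cells, and GINS2 had 730 and 901, against 697. Both were higher in each array, as were all 3 probe sets of GINS2 and both of GINS3. GINS1, the remaining subunit of the complex, was lower in both arrays by nearly the same amount, with 718 and 715 in cisplatin cells, against 819 in untreated cells (-0.19 and -0.20). CDC45, the helicase cofactor, had 293 and 237, against 283 in untreated cells, and MCM10, which helps the helicase start, had 1205 and 970, against 1171. Each was near untreated in B1 and below it in B2 (-0.25 for CDC45, -0.27 for MCM10).

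The clamp and its loader divided by subunit. PCNA, the sliding clamp and also a known p53 target, had 4087 in B1 and 3152 in B2, against 3790 in untreated cells, on either side of it (0.11 and -0.27). RFC3 had 1375 and 1120 in cisplatin cells, against 1671 in untreated cells (-0.28 and -0.58). RFC4 had 1470 and 1112, against 1522 in untreated cells (-0.05 and -0.45). RFC3 and RFC4 lay lower in both arrays, and farther in B2. RFC5 went the other way, with 844 and 1117, against 774 in untreated cells (0.13 and 0.53). RFC2 differed by 0.06 and -0.31, and RFC1, the large subunit, by -0.12 and -0.06. The loader is a complex of these 5 proteins, and the range over them in B2 was -0.58 to 0.53.

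The RFC3 and RFC5 readings rest on the choice of probe set. RFC3 had a further, dimmer probe set with 73.5 in B1 and 198 in B2, against 71.3 in untreated cells, a difference of 1.47 in B2 that opposes the brighter 2. With all 3 averaged, RFC3 differed by 0.04. For RFC5, 2 of 3 probe sets were above untreated in both arrays and 1 below in both (-0.01 and -0.18), and the average over all was 0.17. RFC1 also had a dim probe set higher in both, with 15.3 and 17.1 in cisplatin cells against 14.8 in untreated cells. Over all its probe sets RFC1 differed by -0.05 in B1 and 0.01 in B2. Of the 19 members with several probe sets, 11 had all of them in the same pattern of signs, among them CDC6, CDT1, GINS2, GINS3, MCM5, MCM7 and RRM1.

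**Figure D3:**
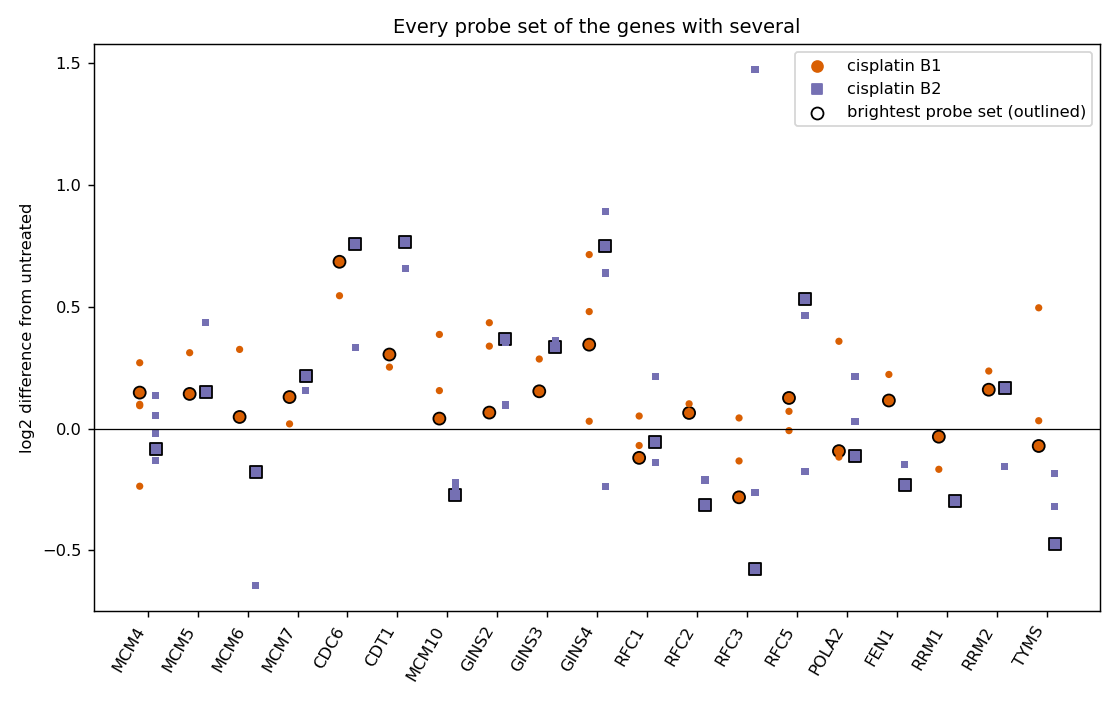
Log2 difference from untreated (y axis) of every probe set of the 19 genes that have several (x axis), in B1 (circles, left) and B2 (squares, right), with the brightest probe set outlined. All probe sets of CDC6, CDT1, GINS2 and GINS3 lie above 0 in both arrays, whereas those of RFC3 reach from -0.58 to 1.47 in B2.

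Primase and polymerase alpha, which together start each new strand, were lower in both arrays. POLA1, the catalytic subunit of polymerase alpha, had 332 in B1 and 181 in B2, against 396 in untreated cells. Its 2 differences were far apart (-0.26 and -1.13, SD 0.62), the widest spread among the members, so that the mean of -0.69 had an SE of 0.47 (adjusted p = 0.969 in limma). PRIM1, the catalytic primase subunit, had 862 and 732 in cisplatin cells, against 1049 in untreated cells (-0.28 and -0.52; mean -0.40, SE 0.22). POLA2, the accessory subunit, differed less, with 274 and 271, against 292 in untreated cells (-0.09 and -0.11), and over its 3 probe sets it averaged 0.05.

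The polymerases that extend the strands stayed closer to untreated cells. POLE, the catalytic subunit of polymerase epsilon, had 202 and 218 in cisplatin cells, against 212 in untreated cells. POLD1, that of polymerase delta, had 246 and 257, against 239. Neither differed by more than 0.11 in either array. POLE2, the second subunit of polymerase epsilon, had 280 and 343, against 366 in untreated cells, and was the only member with a larger distance from untreated in B1 (-0.38) than in B2 (-0.09) by as much as 0.29.

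Enzymes that finish Okazaki fragments straddled the untreated level. FEN1, the flap endonuclease, had 3349 and 2635 in cisplatin cells, against 3092 in untreated cells (0.12 and -0.23). LIG1, the ligase that seals the fragments, had 363 and 328, against 334 in untreated cells (0.12 and -0.03). Of the enzymes for deoxynucleotides, RRM2, the S phase subunit of ribonucleotide reductase, had 6774 and 6816, against 6066 in untreated cells, and was slightly higher in both (0.16 and 0.17). Its second probe set differed by 0.24 and -0.16. RRM1, the large subunit, had 3006 and 2501, against 3077 in untreated cells (-0.03 and -0.30). TYMS, thymidylate synthase, had 3519 and 2663, against 3698 in untreated cells (-0.07 and -0.47). In both of these the difference from untreated lay mainly in B2. The other TYMS probe sets lay above untreated in B1 (0.03 and 0.50) and below it in B2 (-0.32 and -0.18).

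Other replication genes, 53 in 5 lists, were also mixed. Of the 52 measured, 18 were higher and 20 lower in both arrays, none passed limma (0 of 52, and 0 of 52 at an unadjusted p under 0.05), and the medians were 0.02 in B1 and -0.05 in B2. The higher and lower shares were 34.6% and 38.5%, against 39.2% and 27.4% of all genes and 29.8% and 34.2% of those averaging 6 or more in log2. Among the 12 licensing and firing genes of these lists, ORC5 (-0.44 and -0.87), TOPBP1 (-0.41 and -0.43) and ORC2 (-0.38 and -0.65), 2 origin recognition subunits and a firing factor, stood farthest from untreated. Over all their probe sets, ORC5 averaged -0.41 and ORC2 -0.26, against -0.65 and -0.51 by the brightest. Of 9 polymerase and primase subunits 4 were higher and 4 lower, with POLD3 at -0.40 and -0.67, PRIM2, the partner of PRIM1, at -0.32 and -0.48, and POLE3 at 0.28 and 0.51. Of 15 fork genes 5 were higher and 7 lower, with ATAD5, which unloads PCNA, at -0.48 and -0.46, the nuclease DNA2 at -0.45 and -0.60, and CHTF8 at 0.28 and 0.43. Of 8 chromatin assembly genes 3 were higher and 1 lower. The histone chaperone ASF1B was at 0.52 and 0.78, SLBP at 0.22 and 0.12, and NASP at 0.08 and 0.22, although NASP averaged -0.28 over its probe sets. Of 8 other nucleotide genes 3 were higher and 2 lower, with CTPS1 at -0.47 and -0.25, RRM2B at 0.17 and 0.15, and DCTPP1 at 0.07 and 0.32.

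Of 16 regulators of the G1 to S phase passage, 9 lay above untreated in both arrays and 5 below (39.2% and 27.4% of all genes). Their median difference was 0.19 in B1 and 0.27 in B2, and 0 passed limma (0 at an unadjusted p under 0.05). CCNE1, the cyclin of S phase entry, had 537 in B1 and 922 in B2, against 301 in untreated cells, and E2F1 had 293 and 311, against 202. Over all their probe sets the mean difference was 0.60 for CCNE1 and 0.40 for E2F1, against 1.23 and 0.58 by the brightest. The kinase inhibitor gene CDKN1A was also higher, with 748 and 1470, against 369. Reference genes gave a scale for such differences: ACTB differed by -0.10 and -0.10, GAPDH by -0.02 and -0.19, TBP by 0.13 and 0.12, HPRT1 by -0.07 and -0.15, B2M by 0.06 and 0.04, SDHA by 0.02 and 0.20, PPIA by -0.01 and 0.06, and GUSB by 0.23 and 0.43. In B2 the differences of CDC6, CDT1, GINS4, RFC5 and ORC1 above untreated, and of POLA1, RFC3, PRIM1, MCM3, TYMS and RFC4 below it, were larger in size than that of GUSB, the largest of these 8. The other members were within it in B2. In B1, where GUSB differed by 0.23, CDC6, CDT1, GINS4, POLA1, RFC3 and PRIM1 again exceeded it, as did ORC6, GMNN and POLE2. ORC1, RFC5, MCM3, TYMS and RFC4 were within it in B1, as were the remaining members. The share of all genes beyond GUSB was not counted. Differences of the members had a median size of 0.13 in B1 and 0.27 in B2. Over all genes it was 0.16 and 0.25, and over those averaging 6 or more in log2 0.16 and 0.33. By this measure the members did not differ more than genes of like level.

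Genomic span, the distance between a gene's annotated ends, varied over the members from 4.33 kb for FEN1 to 303 kb for POLA1, with a median of 24.4 kb against 24.7 kb for all genes. Only POLA1 and RFC3 (159 kb) spanned over 100 kb, 5.88% of the members against 16.9% of all genes. The 8 members under 15 kb (MCM7, ORC6, CDT1, GMNN, GINS2, GINS3, PCNA and FEN1) had medians of 0.14 and 0.25, and 5 of them were higher and 0 lower in both arrays. Among the 5 members over 60 kb, 1 (RRM2) was higher and 3 lower in both, with medians of -0.12 and -0.06. In between, medians were 0.09 and -0.20 for the 10 members from 15 to 30 kb, and 0.04 and -0.11 for the 11 from 30 to 60 kb. By median, the group over 60 kb was therefore not the lowest in B2. The longest single members, POLA1 (-1.13) and RFC3 (-0.58), were nevertheless the lowest of all members in B2. Bright genes (averaging 6 or more in log2) had medians of 0.08 and 0.13 under 15 kb, 0.05 and 0.07 from 15 to 30 kb, -0.05 and -0.03 from 30 to 60 kb, and -0.30 and -0.28 over 60 kb. Of the 3153 bright genes under 15 kb, 1519 were higher and 443 lower in both arrays. Over 60 kb, 229 of 2883 bright genes were higher and 1871 lower in both. Across the 34 members Spearman's rho between span and difference was -0.52 in B1 and -0.26 in B2, against -0.56 and -0.31 across 10203 bright genes. These are descriptions across genes that share 3 arrays. Span did not order all members: PRIM1 (20.7 kb), TYMS (15.9 kb) and RFC4 (16.6 kb) are short and were lower in both arrays. For TYMS this held for its brightest probe set only. CDC6 (16.8 kb) lay 0.60 and 0.66 above the span trend of all genes.

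**Figure D4:**
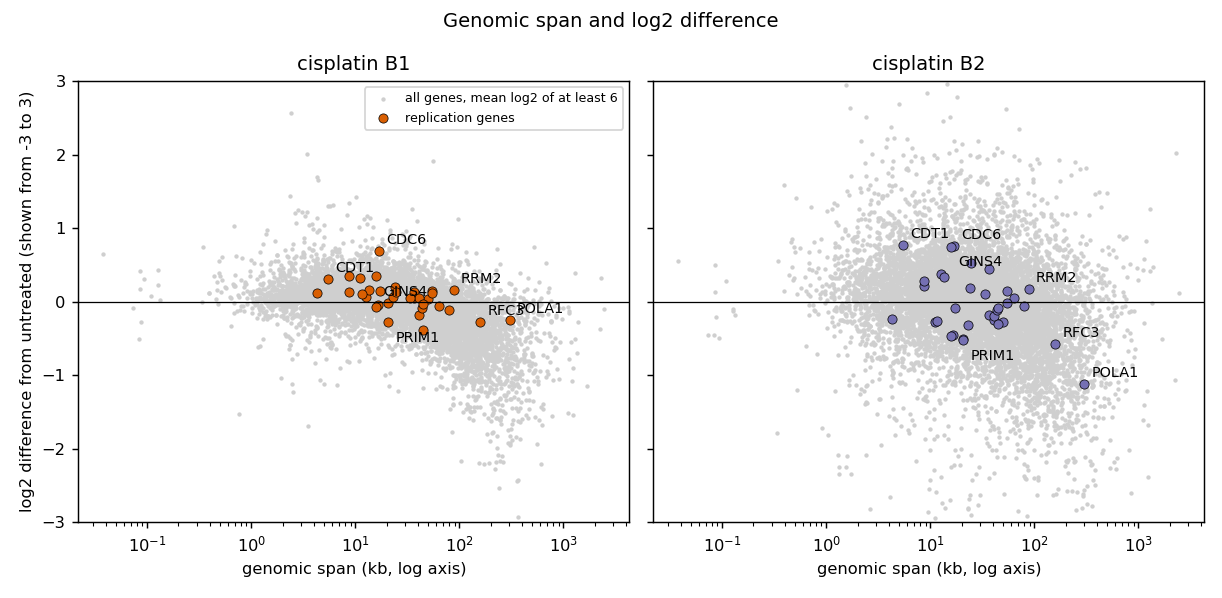
Log2 difference from untreated (y axis, shown from -3 to 3) against genomic span in kb (x axis, log scale) in B1 (left) and B2 (right), for the 34 replication genes (large points) and for genes averaging 6 or more in log2 (small grey points; 0 lie outside the axis in B1 and 63 in B2). POLA1 and RFC3, the longest, lie below 0 in both arrays, and CDC6, CDT1 and GINS4 lie above it.

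Each promoter element occurred in members of either direction. Of the 18 with an E2F-type octamer 6 were higher and 7 lower in both arrays, and the median difference was 0.06 in B1 and -0.10 in B2. Of the 13 without it 5 were higher and 4 lower, with medians of 0.05 and -0.23. CDC6, CDT1 and GINS2 stood higher and POLA1 and RFC3 lower, all with an octamer, while ORC6 stood higher and PRIM1 lower without it. For CCAAT the counts were 7 higher and 6 lower among 19 members that had it, and 4 higher and 5 lower among the 12 that did not.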

How the data were processed

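RNA was measured on 3 Affymetrix arrays, 2 of cisplatin and 1 of untreated cells. Each array has a deposited intensity for 54675 probe sets, made by the authors with RMA, per the submitters' processing notes. The version of RMA is not given in the sources used here, and no detection calls were used. The intensities ran from 3.03 to 19645, a linear scale, and were put on the log2 scale with no pseudocount. The 62 control probe sets were left out; 41091 probe sets carried 1 gene symbol, 1801 several, and 11721, absent from the annotation table, have no name here. Gene numbers gave current symbols from RefSeq (GRCh38.p14; 19734 of 19775 genes found). Cisplatin was compared with untreated by limma 3.58.1 in R 4.3.3 (lmFit, eBayes; 1 residual and 2.01 prior degrees of freedom), with the lone untreated array assumed to vary like the pair, Benjamini-Hochberg adjustment over all genes and a threshold of 0.05. A span trend was fitted by lowess (statsmodels 0.14.6). The number of arrays limits the precision.

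The members, the lists, the 1.5-fold rule and the tests were chosen with earlier results of these data known. All members are named. Marker lists are given as sums and ranges, with SOX2, KRT5, KRT14 and EPCAM also by value. From each other list the text names up to 3 genes whose smaller difference is largest among those with 1 sign in both arrays, and all reference genes. SAMHD1 and TK1 fall outside that rule. TP63, KRT6A, KRT17 and CD68 were among the listed genes with no probe set of their own symbol alone. Alternatives covered a filter on dim genes, the average of probe sets, quantile normalization, centring, a pseudocount of 16, the variance prior, fold thresholds and each cisplatin array alone.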

Additional observations from a re-analysis of the deposited data

How the results depend on the processing

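The untreated level is 1 array, so every difference carries its error, and no detection calls were used. Under each of the 7 alternatives with a test, limma called 0 genes (264 to 680 of all genes at an unadjusted p under 0.05, against 565 as reported), and 233 of 238 member values kept their direction. The 5 that did not were small: with all probe sets averaged RFC3 was at 0.043 and POLA2 at 0.047, and with quantile normalization RFC1 was at 0.013, POLA2 at 0.00071 and POLE at 0.093. The cause was not tested. With all probe sets averaged, 7 members were lower in both arrays in place of 11, and 0 in place of 1 were 1.5-fold higher. At a threshold of 2-fold 0 were higher, and at a looser threshold under 1.5-fold 2 were (CDC6 and GINS4). The share of all genes at these other thresholds was not counted. With 1 cisplatin array left out, members higher numbered 14 in B2 alone and 22 in B1 alone. Members lower numbered 12 in B1 alone and 20 in B2 alone. Members 1.5-fold higher numbered 1 in B1 alone and 3 in B2 alone, and members 1.5-fold lower 0 in B1 alone and 1 in B2 alone. Of all 19775 genes, 376 were 1.5-fold higher in B1 alone and 1784 in B2 alone. Those 1.5-fold lower were 1006 in B1 alone and 2006 in B2 alone. An alternative chosen after seeing the data left out probe sets ending in _x_at where a gene had another, which ORC6 does not. It gave 13 members higher in both arrays, 11 lower, 1 at least 1.5-fold higher and 0 lower by that much. With the span trend removed the median member differed by 0.03 in B1 and -0.12 in B2. No paired analysis was possible because the untreated group has 1 array.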

Other observations

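By chromosome, the 4 members on chromosome 16 (ORC6, CDT1, GINS2 and GINS3) were all higher in both cisplatin arrays, a grouping noticed after their values were seen. Among all 825 genes measured on that chromosome the median difference was 0.04 in B1 and 0.08 in B2, and 42.7% were higher in both arrays.

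Outside the list, SAMHD1, which breaks down deoxynucleotides, had 314 in B1 and 86.8 in B2, against 288 in untreated cells. TK1, thymidine kinase, had 527 in B1 and 888 in B2, against 503 in untreated cells. For both genes B1 lay nearer to untreated cells than to B2. Both genes were chosen after their values were seen.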
